A study of Mus musculus with 4 samples.

Results

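Primitive streak and early mesoderm genes were followed in mouse embryonic stem cells (mESCs) and trophoblast stem cells (TSCs). The list held 10 genes, T, Mixl1, Evx1, Gsc, Mesp1, Tbx6, Wnt3, Fgf8, Kdr and Hand2, taken by name, and all 10 were found among the 37620 gene identifiers of the count tables. RNA-seq was available for 4 samples, 1 for each condition. R1 mESCs, a single mESC line, were kept for 2 days without feeders in serum medium with CHIR99021 (3 µM), which inhibits GSK3, and PD0325901 (1 µM), which inhibits MEK. This mixture without LIF is named 2i-L. The 2iJ condition also held a JAK inhibitor (2 µM). For 2iJ+B-A, 2iJ was supplemented with BMP4 (10 ng/ml) and with ALK5 inhibitor II (10 µM), which the paper uses to inhibit Activin and Nodal signaling. Thus all mESC samples shared CHIR99021 and PD0325901, and the sample labelled 2iJ+B-A differed from 2iJ by both additions at once, so that the effect of BMP4 and that of the ALK5 inhibitor cannot be told apart. The TSC sample was the F4 line, also labelled day 2, with no treatment in its label. With 1 sample per condition, no difference below has a replicate check.

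The primitive streak is the site where epiblast cells of the gastrulating embryo leave the epithelium and become mesoderm and definitive endoderm. Its formation depends on Nodal, Wnt and BMP signals, with Wnt3 and Nodal acting upstream of the T-box factor T (Brachyury), and BMP4 from the extraembryonic ectoderm favoring posterior fates. Anterior streak cells express Gsc, posterior ones Evx1, and the mesoderm that leaves the streak is divided into paraxial (Tbx6), cardiac (Mesp1, Hand2) and blood or vascular (Kdr) lineages. T is also known as a direct target of β-catenin with TCF factors, the pathway that CHIR99021 activates.

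The libraries held between 33913984 and 36964392 read pairs on genes. Levels are given as CPM, the read pairs of a gene scaled to the normalized library size, and 3 read pairs, the count at or under which a gene was taken as near 0, equalled 0.0799 to 0.0902 CPM. A ratio between 2 libraries was called higher or lower where it was at least 2-fold and its exact 95% interval, which covers counting error only, left out 1. A filter kept the 14263 genes that reached 1 CPM in any sample, and 5 of them were members (T, Evx1, Wnt3, Fgf8 and Kdr). The other 5 (Mixl1, Gsc, Mesp1, Tbx6 and Hand2) stayed below 1 CPM in all 4 samples and are given by their values. The pluripotency marker Pou5f1 was at 658.0 to 899.3 CPM in the mESC samples and at 1.339 CPM in TSCs. Summed over 10 pluripotency markers, mESC samples had 3688 to 6576 CPM and TSCs 812.6 CPM. In TSCs, Esrrb, Sox2, Tfcp2l1 and Zfp42 stayed at 122.9 to 253.9 CPM. Elf5, a defining TSC gene, was at 298.3 CPM in TSCs and at most 0.1331 CPM in mESCs.

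The starts of 5 members are shown because these genes differed between 2iJ+B-A and 2iJ. Each window holds 250 bases before and 50 bases from the annotated start, 5′ to 3′ on the strand of the gene, from RefSeq on GRCm38.p6, which is a later build than that of the counts. T lies at chr17:8434173-8434472 (plus strand), Wnt3 at chr11:103773925-103774224 (plus), Evx1 at chr6:52313248-52313547 (plus), Gsc at chr12:104473187-104473486 (minus) and Kdr at chr5:75978406-75978705 (minus). Capitals mark matches to the TCF/LEF core CTTTGA on either strand.
T: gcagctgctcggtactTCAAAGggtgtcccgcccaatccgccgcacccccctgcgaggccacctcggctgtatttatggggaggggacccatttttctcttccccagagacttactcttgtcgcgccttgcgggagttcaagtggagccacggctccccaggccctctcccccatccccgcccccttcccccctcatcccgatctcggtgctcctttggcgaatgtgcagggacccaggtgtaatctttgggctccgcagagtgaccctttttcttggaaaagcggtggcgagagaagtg
Wnt3: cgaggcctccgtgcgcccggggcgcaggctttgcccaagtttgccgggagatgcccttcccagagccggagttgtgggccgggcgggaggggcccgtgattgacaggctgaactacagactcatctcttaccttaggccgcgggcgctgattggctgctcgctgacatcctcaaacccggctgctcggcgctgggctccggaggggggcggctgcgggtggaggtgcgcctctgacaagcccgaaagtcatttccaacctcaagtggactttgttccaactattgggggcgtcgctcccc
Evx1: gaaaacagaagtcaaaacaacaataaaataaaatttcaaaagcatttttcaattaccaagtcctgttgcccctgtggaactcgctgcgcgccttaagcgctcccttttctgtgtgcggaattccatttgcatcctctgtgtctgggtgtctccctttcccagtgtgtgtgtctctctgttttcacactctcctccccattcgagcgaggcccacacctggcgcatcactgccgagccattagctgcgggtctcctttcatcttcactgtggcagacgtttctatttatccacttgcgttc
Gsc: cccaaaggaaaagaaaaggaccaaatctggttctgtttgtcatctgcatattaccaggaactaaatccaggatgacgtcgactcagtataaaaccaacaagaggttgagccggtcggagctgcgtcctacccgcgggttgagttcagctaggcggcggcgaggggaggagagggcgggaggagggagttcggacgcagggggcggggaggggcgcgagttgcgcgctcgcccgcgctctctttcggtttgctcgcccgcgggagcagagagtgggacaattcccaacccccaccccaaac
Kdr: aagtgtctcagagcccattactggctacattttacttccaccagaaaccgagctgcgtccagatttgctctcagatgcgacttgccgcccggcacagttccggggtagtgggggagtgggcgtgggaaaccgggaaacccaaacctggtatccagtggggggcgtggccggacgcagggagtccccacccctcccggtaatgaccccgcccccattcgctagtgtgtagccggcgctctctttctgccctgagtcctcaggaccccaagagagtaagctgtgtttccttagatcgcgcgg
The T window held 1 match, as the reverse complement TCAAAG, at position -234 relative to the start, and the 4 other windows held no CTTTGA on either strand. Of 32851 windows of this length, 16% held this core. Neither a FOXH1 motif (AATCCACA, found in 0.855% of windows) nor the GC-rich SMAD motif GGCGCC (11.9%) was found in these 5 windows on either strand. Of the remaining members, windows of Mesp1, Tbx6 and Hand2 were in the RefSeq table, and Mixl1 and Fgf8 had no entry. Mesp1 held 2 matches to the TCF/LEF core and Hand2 held 1 to GGCGCC.

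With BMP4 plus ALK5 inhibitor, T, Wnt3 and Fgf8 fell and Evx1 and Kdr rose among the members that passed the filter, and Gsc, which lay just below the filter, also met the rule for a rise. Mixl1, Tbx6 and Hand2 were not called, and Mesp1 gave no ratio. In the same comparison, 4.67% of the 14263 genes were called lower and 7.81% higher, with a median log2 ratio of -0.003. The share of members called is not read against these values, because Fgf8 passed the filter only through 2iJ and Evx1 only through 2iJ+B-A, the samples in which each was high. In bulk samples, fewer cells expressing a gene and less RNA per cell cannot be told apart.

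**Figure D1:**
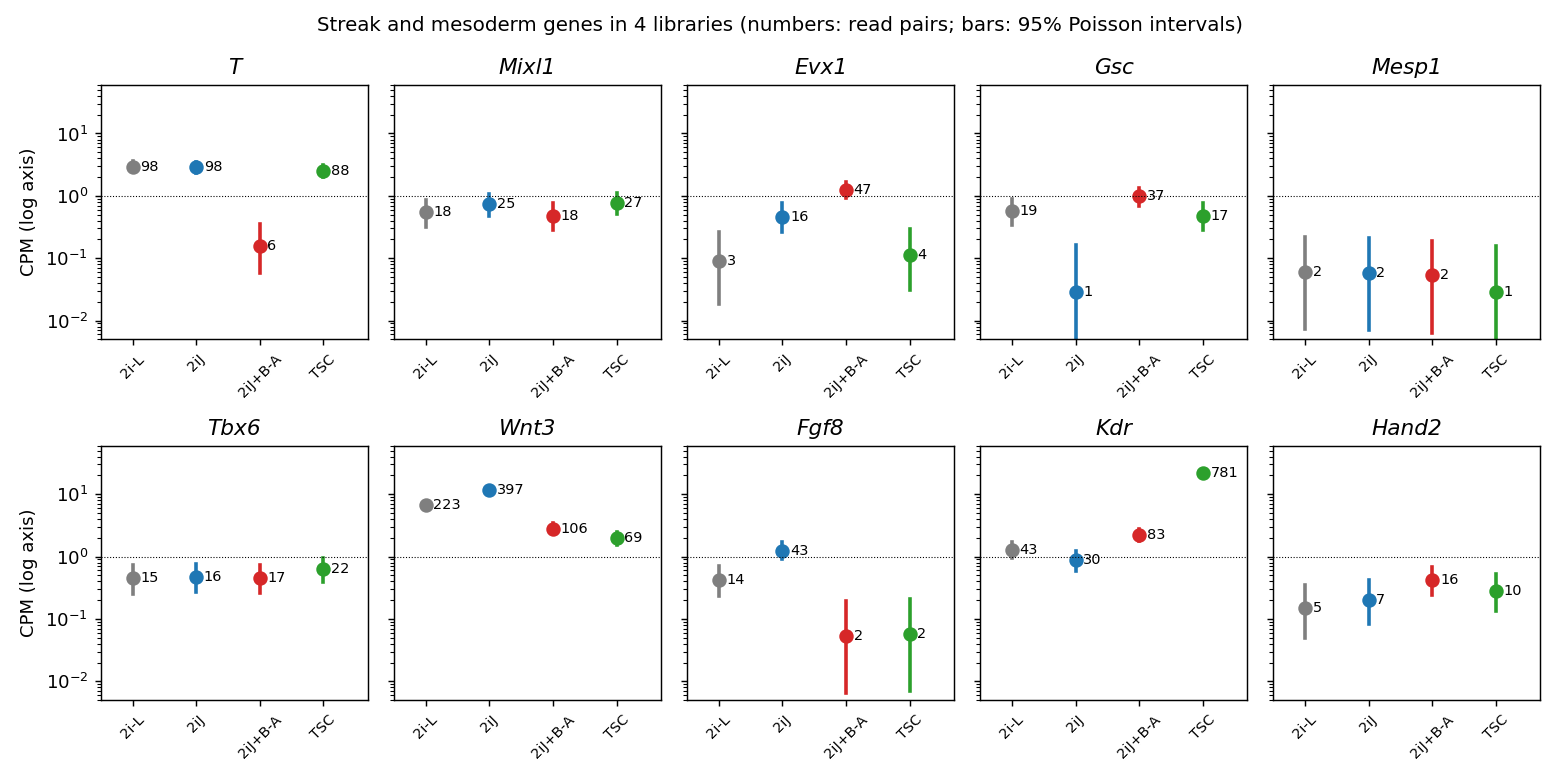
Level of each member in CPM (log axis) in the 4 samples, with the number of read pairs beside each point, exact 95% Poisson intervals as bars and a dotted line at 1 CPM. T stood at 98 read pairs in both 2i-L and 2iJ and at 6 in 2iJ+B-A, whereas Mixl1, Tbx6, Hand2 and Mesp1 had overlapping intervals in all 4 samples.

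T (ENSMUSG00000062327, chromosome 17 from 8627288 to 8635361 of NCBIM37, plus strand) encodes the T-box factor that defines the streak and nascent mesoderm. It had 6 read pairs in 2iJ+B-A (0.1597 CPM), against 98 in 2iJ (2.854 CPM), 98 in 2i-L (2.947 CPM) and 88 in TSCs (2.507 CPM). Only the 2iJ+B-A sample was low. T was 17.9-fold lower in 2iJ+B-A than in 2iJ (interval 7.92 to 49.9).

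Wnt3 (ENSMUSG00000000125, chromosome 11 from 103635464 to 103679271, plus strand), the Wnt ligand required to form the streak, had 106 read pairs in 2iJ+B-A (2.822 CPM), against 397 in 2iJ (11.56 CPM), 223 in 2i-L (6.705 CPM) and 69 in TSCs (1.965 CPM). The 2iJ sample was the highest. Wnt3 fell 4.10-fold from 2iJ to 2iJ+B-A (interval 3.30 to 5.13) and was also 2.38-fold lower than in 2i-L (interval 1.88 to 3.02).

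Fgf8 (ENSMUSG00000025219, chromosome 19 from 45811288 to 45817405, minus strand) encodes an FGF ligand that streak cells need to migrate away. It had 14 read pairs in 2i-L (0.4210 CPM), 43 in 2iJ (1.252 CPM) and 2 each in 2iJ+B-A (0.05324 CPM) and TSCs (0.05697 CPM). The last 2 samples were at or near 0 by this measure. The decrease from 2iJ to 2iJ+B-A was 23.5-fold, with a wide interval of 6.13 to 200.4 that follows from the 2 read pairs.

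Evx1 (ENSMUSG00000005503, chromosome 6 from 52263492 to 52268372, plus strand), a homeobox gene of the posterior streak, had 47 read pairs in 2iJ+B-A (1.251 CPM), against 16 in 2iJ (0.4659 CPM), 3 in 2i-L (0.09021 CPM) and 4 in TSCs (0.1139 CPM). The 2iJ+B-A sample was the highest of the 4. Evx1 was 2.69-fold higher in 2iJ+B-A than in 2iJ (interval 1.495 to 5.07) and 13.9-fold higher than in 2i-L (interval 4.46 to 69.7). A noncoding gene on the opposite strand, 5730457N03Rik, overlaps Evx1, and at most 1 read pair per sample fell on that strand of Evx1.

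Kdr (ENSMUSG00000062960, chromosome 5 from 76328852 to 76374483, minus strand), the VEGF receptor of blood and vascular progenitors, had 83 read pairs in 2iJ+B-A (2.209 CPM), against 30 in 2iJ (0.8736 CPM), 43 in 2i-L (1.293 CPM) and 781 in TSCs (22.25 CPM). TSCs stood far above the mESC samples. Within mESCs, Kdr rose 2.53-fold from 2iJ to 2iJ+B-A (interval 1.65 to 3.98), while against 2i-L it was 1.71-fold higher (interval 1.17 to 2.53), short of the 2-fold needed for a call. On the log2(CPM + 0.5) scale neither Kdr nor Evx1 reached 2-fold between 2iJ+B-A and 2iJ, whereas T, Wnt3 and Fgf8 stayed beyond it.

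Gsc (ENSMUSG00000021095, chromosome 12 from 105709419 to 105711537, minus strand), a homeobox gene of the anterior streak and organizer, reached at most 0.9849 CPM and so lay just below the filter. It had 37 read pairs in 2iJ+B-A, against 1 in 2iJ, 19 in 2i-L and 17 in TSCs. The 2iJ sample alone was near 0. Gsc was 33.8-fold higher in 2iJ+B-A than in 2iJ, with an interval of 5.71 to 1371, but 1.72-fold higher than in 2i-L, where the log2 interval of -0.05 to 1.67 held 0. The rise of Gsc therefore rests on the single read pair in the 2iJ sample.

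The 4 remaining members were not called in this comparison. Mixl1 (ENSMUSG00000026497, chromosome 1 from 182623174 to 182627165, minus strand), a homeobox gene of the streak that responds to Activin and Nodal, had 18 read pairs in 2iJ+B-A, against 25 in 2iJ, 18 in 2i-L and 27 in TSCs. Between 2iJ+B-A and 2iJ its log2 ratio was -0.60, with an interval of -1.56 to 0.33, which spans a 2-fold decrease as well as no change. Tbx6 (ENSMUSG00000030699, chromosome 7 from 133924997 to 133929074, plus strand), the T-box factor of paraxial mesoderm, had between 15 and 17 read pairs in the mESC samples and 22 in TSCs, and its log2 ratio was -0.04 (interval -1.12 to 1.04). Hand2 (ENSMUSG00000038193, chromosome 8 from 59799780 to 59803314, plus strand), a factor of cardiac and lateral mesoderm, had 16 read pairs in 2iJ+B-A, against 7 in 2iJ, 5 in 2i-L and 10 in TSCs, with a log2 ratio of 1.06 whose interval of -0.30 to 2.59 held 0. Mesp1 (ENSMUSG00000030544, chromosome 7 from 86937127 to 86938674, minus strand), a factor of the earliest cardiac mesoderm, had 2 read pairs in each mESC sample and 1 in TSCs, which gives no ratio at this depth.

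**Figure D2:**
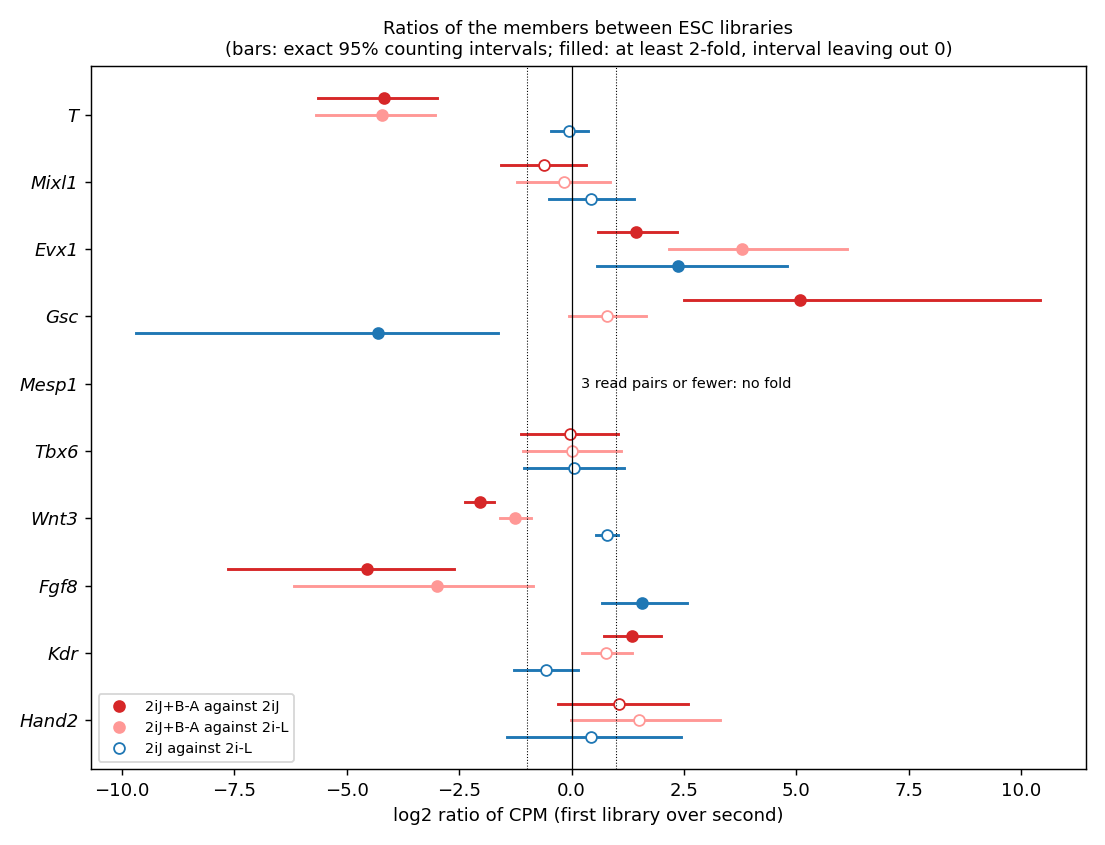
Log2 ratios of CPM between mESC samples for the members, with exact 95% counting intervals. Filled points were at least 2-fold with an interval that left out 0, and T, Wnt3 and Fgf8 lay on the lower side of 2iJ+B-A against both references.

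The 2iJ and 2i-L samples differ by the JAK inhibitor, and this comparison shows how far the reference affects the calls. Both comparisons of 2iJ+B-A share that sample, and the values are given side by side. Between 2iJ and 2i-L, Evx1 was 5.17-fold higher in 2iJ (interval 1.48 to 27.7) and Fgf8 was 2.98-fold higher (interval 1.596 to 5.89). Over all genes tested, 3.18% were higher and 1.76% lower in 2iJ, and these shares are no measure for the members, since Fgf8 passed the filter only through 2iJ. No member that passed the filter was lower, while Gsc, outside the filter, was 19.6-fold lower in 2iJ (interval 3.12 to 815.2). Wnt3 was 1.72-fold higher (interval 1.46 to 2.04) and T was not distinguishable within counting error, with a log2 ratio of -0.05 (interval -0.47 to 0.37). With 2i-L as the reference of 2iJ+B-A, T (18.5-fold), Wnt3 (2.38-fold) and Fgf8 (7.91-fold, interval 1.82 to 71.7) were lower and Evx1 was higher. Over all genes tested, 6.27% were called lower and 10.3% higher. These shares are again no measure for the members, since Evx1 passed the filter only through 2iJ+B-A. On the log2(CPM + 0.5) scale Fgf8 was not called against 2i-L (-0.74). Directions of the 3 falls were therefore shared by both references, whereas of the rises only that of Evx1 was called with both.

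TSCs were set beside 2iJ+B-A, the mESC condition with raised trophoblast genes. Over all genes tested, 18.1% were higher and 18.3% lower in TSCs. These shares are no measure for the members, since Evx1 passed the filter only through 2iJ+B-A. T was 15.7-fold higher in TSCs (interval 6.93 to 43.9), Kdr was 10.1-fold higher (interval 8.02 to 12.8) and Evx1 was 10.98-fold lower (interval 4.02 to 42.0). Wnt3 was 1.44-fold lower (interval 1.05 to 1.97) and was not called. Gsc, below the filter, was 2.03-fold lower (interval 1.12 to 3.85). T in TSCs (2.010 to 3.088 CPM, Poisson interval) overlapped the intervals of 2i-L (2.392 to 3.591) and 2iJ (2.317 to 3.478). The T-box gene Eomes, a TSC gene as well as a streak gene, was at 178.9 CPM in TSCs.

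The members were ordered in each sample by CPM per kilobase of exon, the scale on which genes can be compared. In 2i-L, Wnt3 (2.180) was followed by T (1.275) and Gsc (0.4516), and both steps were beyond counting error. In 2iJ, Wnt3 (3.758) was again first, and the next genes, T (1.234) and Fgf8 (0.9276), did not differ beyond it. In 2iJ+B-A, Wnt3 (0.9173) and Gsc (0.7786) led and did not differ, Evx1 (0.4348) came next, and T (0.06908) ranked 8 of 10. In TSCs, Kdr (3.057) was first, ahead of T (1.084) and Wnt3 (0.6390), each step beyond counting error. Most steps among the lower ranks were within it. All 10 genes together had summed levels of 8.891 CPM in 2iJ+B-A, 18.49 CPM in 2iJ, 13.23 CPM in 2i-L and 29.08 CPM in TSCs. Single genes made up much of these sums. The lower sum in 2iJ+B-A than in 2iJ came mostly from Wnt3 (11.56 to 2.822 CPM), and Kdr gave 22.25 CPM of the TSC sum.

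Wider lists placed these genes in their developmental groups. Over all 14263 genes tested, 7.81% rose and 4.67% fell between 2iJ and 2iJ+B-A. The list counts and medians are not read against all genes, because the filter favored some genes that were called. Evx1, Cdx4, Bmp2, Prrx2, Isl1 and Sox17 passed it only through 2iJ+B-A, and Fgf8 only through 2iJ. In the list of 18 streak transcription factors, which includes T, Evx1, Gsc and Mixl1, 14 were tested. Of these, 7 fell, 3 rose and 4 were not called between 2iJ and 2iJ+B-A, with a median log2 ratio of -0.91. Sp8, a zinc finger gene of the tail bud, fell 7.93-fold (interval 4.95 to 13.4), from 145 to 20 read pairs. Eomes, a factor of mesendoderm and trophoblast, fell 3.89-fold (interval 3.12 to 4.89), and Sp5, a Wnt target that acts downstream of β-catenin, fell 2.43-fold (interval 1.81 to 3.28). Cdx2, a gene of the posterior streak and the trophectoderm, rose 5.02-fold (interval 4.36 to 5.80). Among 24 signals and antagonists of the streak, including Wnt3 and Fgf8, 21 were tested, of which 7 fell, 5 rose and 9 were not called, with a median of -0.37. Nodal fell 2.72-fold (interval 2.58 to 2.88) and its coreceptor Tdgf1 fell 3.63-fold (interval 3.45 to 3.81). The Nodal antagonists fell most, Lefty1 by 342.8-fold (interval 204.1 to 627.6). Lefty2, with 0 read pairs in 2iJ+B-A, fell by 3314-fold if set at the floor of 3 read pairs. The exact interval for Lefty2 began at 2695-fold. These 2 genes resemble each other, and read pairs matching both would be uncounted. Rises were seen for the BMP ligands Bmp2 (4.26-fold, interval 2.89 to 6.45) and Bmp4 (3.20-fold, interval 2.72 to 3.79) and for the Wnt antagonist Dkk1 (5.10-fold, interval 4.35 to 6.01). Axin2, a feedback target of Wnt signaling, had 2500 read pairs in 2iJ+B-A and 1991 in 2iJ (log2 ratio 0.20, interval 0.11 to 0.28) and was not called.

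Genes of later mesoderm were counted in the same way. Among 23 genes of cardiac and lateral mesoderm, including Mesp1 and Hand2, 15 were tested, of which 10 rose, 0 fell and 5 were not called, with a median log2 ratio of 1.44. Hand1, the partner of Hand2 in lateral and extraembryonic mesoderm and a trophoblast gene, rose 79.0-fold (interval 58.9 to 108.5). Foxf1 (Foxf1a in the annotation), a gene of extraembryonic and lateral mesoderm, rose from 2 to 137 read pairs, 62.6-fold (interval 17.0 to 522.2), and Prrx2 rose 8.89-fold (interval 5.46 to 15.4). The cardiac genes Tnnt2 (12 read pairs in 2iJ, 7 in 2iJ+B-A) and Nkx2-5 (21 and 15) were not called. Among the 19 genes of blood and vessels, which include Kdr, 12 were tested, and 5 rose, 0 fell and 7 were not called, with a median of 0.595. Gata2, expressed in blood progenitors and in trophoblast, rose 10.3-fold (interval 9.53 to 11.03), Sox17 rose 5.68-fold (interval 3.21 to 10.8) and Gata1 rose 5.55-fold (interval 3.13 to 10.6). Etv2 and Cdh5, which define endothelial progenitors and endothelium, had 33 and 11 read pairs in 2iJ and 19 and 7 in 2iJ+B-A and were not called. Of 16 paraxial mesoderm genes, including Tbx6, only 7 were tested, with 1 higher, 2 lower and a median of 0.07. Foxc2 rose from 2 to 32 read pairs, Ripply1 fell 5.28-fold (interval 3.52 to 8.18) and Tcf15 fell 2.01-fold (interval 1.44 to 2.84). Hes7 (1 and 14 read pairs in 2iJ and 2iJ+B-A) and Foxc1 (6 and 11) did not pass the filter, and Msgn1, a defining gene of presomitic mesoderm, had at most 4 read pairs in any sample. These lists share genes with markers of other tissues. Without the 4 cardiac or lateral genes that also stand in such a marker list (Hand1, Gata4, Tbx3 and Pdgfra), 6 of 11 tested genes rose and 0 fell, with the same median of 1.44. Without Sox17, 4 of 11 blood and vascular genes rose (Kdr, Gata1, Gata2 and Runx1) and the median was 0.19. In TSCs these 4 genes were at 22.25, 38.8, 84.29 and 14.78 CPM, against 2.209, 2.263, 236.4 and 2.635 CPM in 2iJ+B-A. Without Eomes, Foxa2 and Cdx2, 6 of 11 streak factors fell and 2 rose. These reduced lists were chosen after seeing the data.

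**Figure D3:**
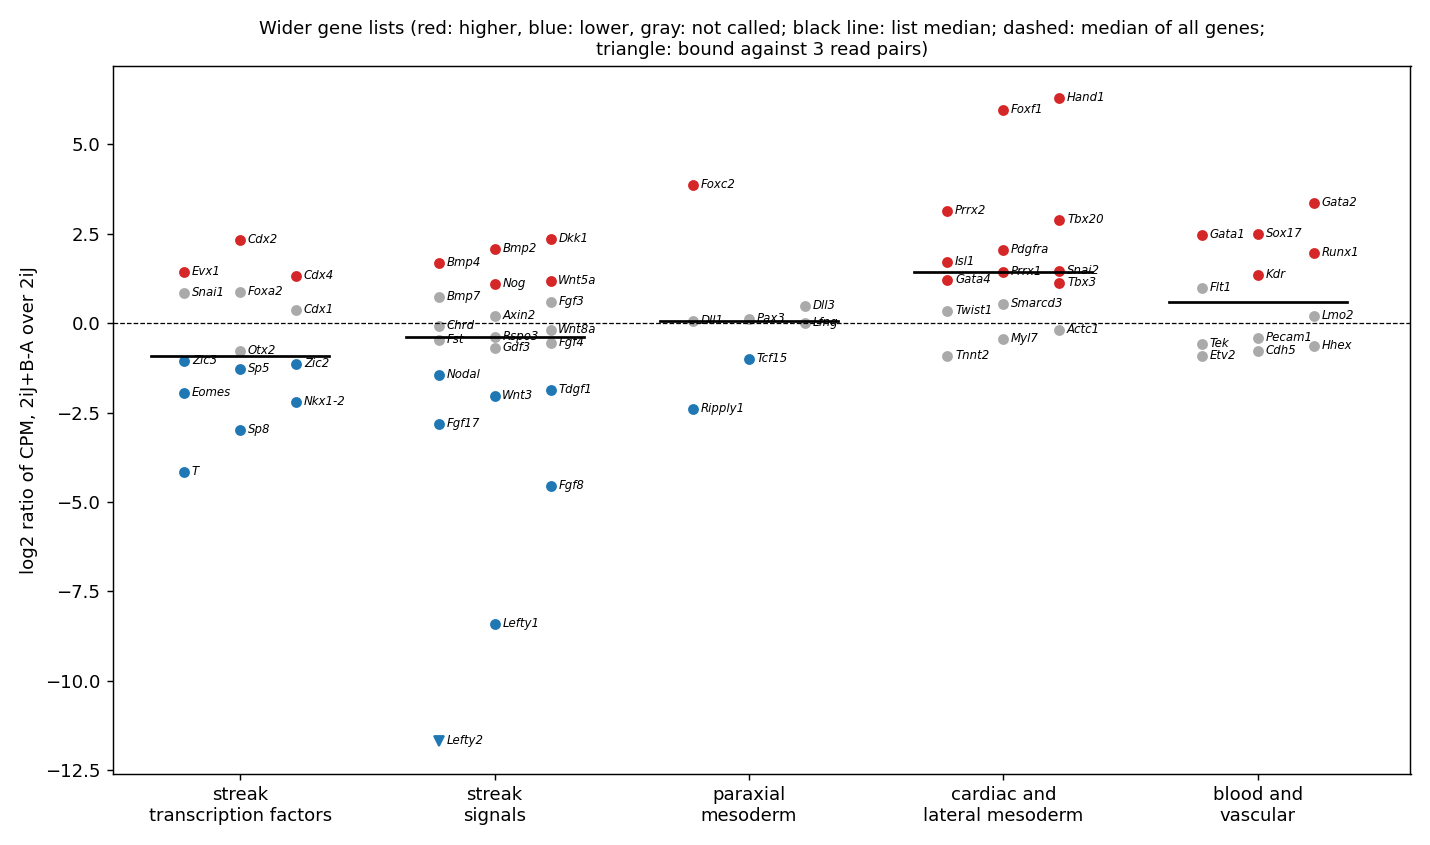
Log2 ratio of CPM of 2iJ+B-A over 2iJ for the tested genes of 5 wider lists, with list medians as black lines and the median of all genes dashed. The cardiac and lateral list had a median of 1.44 and the streak transcription factors one of -0.91, and the triangle for Lefty2 is a bound.

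Marker lists of other cell types were counted in the same comparison, in which 7.81% of all genes tested rose and 4.67% fell. From 2iJ to 2iJ+B-A, 8 of 14 trophoblast markers rose, led by Hand1, Ascl2 (9.37-fold) and Cdx2, 1 fell (Eomes), and Fgfr2 had a log2 ratio of -0.93 and was not called. Summed over the list, they had 1750 CPM in 2iJ+B-A after 965.1 CPM in 2iJ, and TSCs had 4424 CPM. The higher sum in 2iJ+B-A came mostly from Krt8 (133.7 to 552.6 CPM) and Krt18 (104.5 to 521.4 CPM), while Esrrb went from 476.4 to 302.3 CPM. Elf5 had 2 and 5 read pairs in these mESC samples. Of the 10 primitive endoderm markers, 9 were tested, 5 rose and 0 fell, led by Gata6 (26 to 262 read pairs) and Sox17, with Lama1 and Sparc at log2 ratios of 0.42 and 0.49 and Sox7, outside the filter, at 5 and 23 read pairs. Their sum went from 411.2 to 700.5 CPM, mostly through Col4a1 (87.83 to 228.3 CPM) and Sparc (264.5 to 372.2 CPM). Of the 10 pluripotency markers, 1 rose (Tbx3) and 2 fell (Tdgf1 and Dppa5a), while Tfcp2l1 and Klf2 had log2 ratios of -0.15 and -0.27. Their sum went from 5405 to 3688 CPM. The sum of the fibroblast markers, listed for cells used as feeders, was lowest in TSCs, at 24.84 CPM, while the mESC samples had sums of 126.6 to 351.9 CPM. In TSCs, Col1a2, Col3a1, Lum, Dcn and Acta2 had 0 or 1 read pair. The highest counts there were those of Col5a1 (572) and Pdgfrb (147), and Twist2 had 26 read pairs, against 2 to 23 in the mESC samples. In 2iJ+B-A, 2 of 8 tested fibroblast markers rose and 1 fell compared with 2iJ. The list sum went from 213.1 to 351.9 CPM, mostly through Acta2 (141.5 to 258.8 CPM), which was not called. Col5a1 rose 2.04-fold and Col1a1 fell 4.34-fold, and Twist2 (2 and 23 read pairs), Lum (3 and 21) and Dcn (21 and 11) did not pass the filter. The part of these cell types in the levels of the streak and mesoderm genes was not tested.

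**Figure D4:**
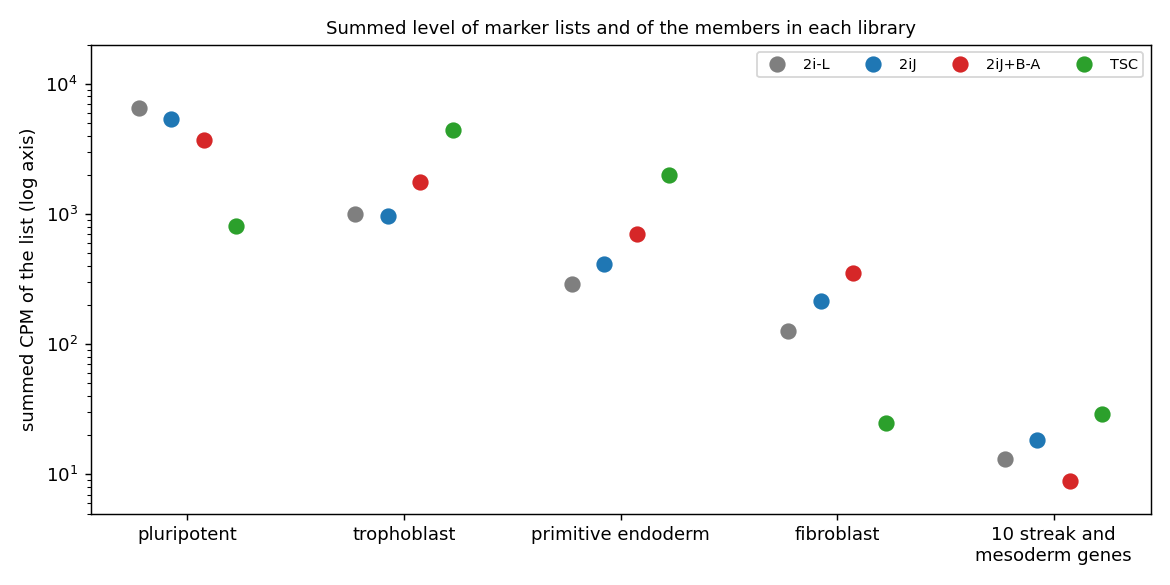
Summed CPM (log axis) of 4 marker lists and of the 10 members in each sample. From 2iJ to 2iJ+B-A the trophoblast, primitive endoderm and fibroblast sums were higher, and the pluripotency and member sums were lower, at 3688 and 8.891 CPM. The higher sums came mostly from Krt8 and Krt18, from Col4a1 and Sparc, and from Acta2, in that order of lists. The lower member sum came mostly from Wnt3 (11.56 to 2.822 CPM).

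Genes with the most similar pattern over the 4 samples were found for the tested members by the Euclidean distance of centred log2(CPM + 0.5) values. For T these were Aplp1 (distance 0.28), Aim2 (0.323) and Irf1 (0.324), each low in 2iJ+B-A alone. Kdr was closest to Tenc1 (0.053), Fstl3 (0.171) and Wt1 (0.18), each highest in TSCs. Evx1 was closest to Gucy1a3 (0.145), Trpc6 (0.182) and Rhbdl3 (0.201). Wnt3 was closest to Zfp750 (0.175), Gm5698 (0.191) and Dub1 (0.217), and Fgf8 to Tex19.2 (0.136), Igfbp3 (0.17) and AA623943 (0.184). With 4 samples and 14263 genes, such distances describe these libraries only.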

How the data were processed

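Total RNA of R1 mESCs in 2i-L, 2iJ and 2iJ+B-A and of F4 TSCs was enriched for poly-A mRNA and sequenced as strand-specific paired reads of 126 bases by the authors, who trimmed the reads with cutadapt and mapped them to NCBIM37 with STAR 2.4.2a. The deposited values are raw counts of read pairs per Ensembl gene, without the ComBat step of the paper, and the annotation release is not given in the sources used here. Pairs that map to several places (6.72% to 7.01% of those listed) are not counted, and pairs on no gene (7.04% to 8.4%) or on several genes (0.89% to 0.94%) were left out.

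Counts of the reverse strand were used, 29.1 to 32.1 times those of the opposite strand. Names came from GENCODE M1 on NCBIM37 and, where it had none, from a table of gene identifiers and symbols (37205 of 37620 identifiers named). GENCODE M1 also gave coordinates and exon lengths. No 100-base tile of a member's transcript matched elsewhere in the genome (minimap2 2.31-r1302). CPM used TMM library sizes (edgeR 4.0.16 in R 4.3.3). Ratios carry Clopper-Pearson intervals of the share of read pairs (scipy 1.17.1) and no pseudocount. With 1 sample per condition no replicate model could be fitted, and no p-value is given. The method was tested on simulated Poisson counts of genes with at least 1 CPM pooled over 2iJ+B-A and 2iJ. Genes at a lower pooled level, among them Evx1, Fgf8 and the members outside the filter, and variation between cultures were not covered. Alternatives were DESeq2 1.42.0 size factors, total counts, no filter, unstranded counts, a 0.5 CPM pseudocount and stricter calls. The members and lists were chosen with earlier results of these data known. All 10 members are named, and from each other list the 3 highest and 2 lowest ratios of 2iJ+B-A to 2iJ with at least 10 read pairs, defining genes near 0 and further streak genes.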

Additional observations from a re-analysis of the deposited data

How the results depend on the processing

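No paired analysis was possible because each condition has 1 sample, and no replicate could be left out. Under the 7 alternatives, 236 ratios of single members stayed within the main interval, 9 left it, all with log2(CPM + 0.5), and none that was called changed direction. Leaving out the filter and the stricter calls do not alter a ratio, so their part of the 236 was fixed in advance. Only the DESeq2 size factors, total counts, unstranded counts and the pseudocount could move one. The members lower in 2iJ+B-A than in 2iJ numbered 3 (T, Wnt3 and Fgf8) in the main analysis and under each alternative. The rises were less stable. With log2(CPM + 0.5), a 4-fold threshold or a whole interval beyond 2-fold, 0 tested members in place of 2 were called higher in 2iJ+B-A than in 2iJ. Evx1 and Kdr then fell short of the size or interval required. Gsc, left out of this count by the filter, met the rule for a rise under each of these settings, with 1 read pair in 2iJ. Between 2iJ and 2i-L, 2 members were higher in the main analysis, 0 with log2(CPM + 0.5), 1 at 4-fold and 0 with a whole interval beyond 2-fold. With total counts, unstranded counts or no filter Gsc was tested, so that 3 members were higher in 2iJ+B-A than in 2iJ, 1 member in place of 0 was lower in 2iJ than in 2i-L, and 2 in place of 1 were lower in TSCs than in 2iJ+B-A without a filter or with unstranded counts. With a whole interval beyond 2-fold, 1 member (T) in place of 3 was lower in 2iJ+B-A than in 2i-L. Over all genes, log2(CPM + 0.5) lowered the genes called between 2iJ and 2i-L from 453 to 175 higher and from 251 to 131 lower. A 4-fold threshold left 58 and 28 there, 338 higher and 135 lower between 2iJ+B-A and 2iJ (from 1114 and 666), 545 and 199 between 2iJ+B-A and 2i-L (from 1462 and 894), and 1104 and 1551 between TSCs and 2iJ+B-A (from 2580 and 2616). A whole interval beyond 2-fold left 88 and 81, 652 and 344, and 925 and 496 in the first 3 of these comparisons. Variation between cultures cannot be measured here, and most members have under 50 read pairs per sample, which sets the width of their intervals.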

Other observations

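Genes of the epithelial to mesenchymal transition, by which cells leave the streak, were examined in the same samples. Of 10 genes, 9 were tested between 2iJ+B-A and 2iJ, and 1 rose, 0 fell and 8 were not called. Over all genes tested, 7.81% rose and 4.67% fell, so 1 of 9 is not read as a result about this list. The gene that rose was Snai2, a repressor of epithelial genes, from 43 to 129 read pairs (2.74-fold, interval 1.93 to 3.97). Snai1, the repressor that acts in the streak, had 296 read pairs in 2iJ+B-A, against 151 in 2iJ, 63 in 2i-L and 181 in TSCs, with a log2 ratio between 2iJ+B-A and 2iJ of 0.84 (interval 0.55 to 1.13). The epithelial cadherin Cdh1 had a log2 ratio of 0.54 (1011 and 694.7 CPM). The mesenchymal genes Fn1 and Vim had log2 ratios of -0.78 and -0.75, and Zeb1 had 0 read pairs in all 4 samples.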
